A study of Mus musculus with 6 samples.

Results

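SRF-driven contractile genes are the genes of the contractile machinery that serum response factor (SRF) is known to switch on, and 10 of them were followed through cultured mouse glioma cells: Acta2, Actg2, Tagln, Cnn1, Cnn2, Myl9, Tpm1, Tpm2, Vcl and Srf itself. They were taken by symbol from the gene table of the matrices, so the set holds 10 of the 54446 genes listed. GL261, an established mouse glioma line labelled as glioblastoma cells, was kept in a differentiation medium with fetal calf serum and gave 2 libraries. GL261-GSCs, cultures derived from that line and labelled glioblastoma stem cells, gave 4 libraries from a defined medium for stem cells. Both groups carry the same line and no stated genetic change or drug, so the medium, growth as neurospheres and the derivation of the cultures cannot be told apart. The sources used here do not say whether the replicates came from separate cultures, and p-values then measure only the spread between these libraries.

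SRF is a transcription factor that binds a short A- and T-rich element, the CArG box. Its partners divide its targets: myocardin-related factors, held in the cytoplasm by unpolymerised actin and released when filaments are built, drive contractile and cytoskeletal genes, while ternary complex factors of the Elk family, acted on by MAP kinases, drive immediate early genes. In the brain, smooth muscle actin and its companions are known from the muscle cells and pericytes of vessels, and in culture from cells stimulated by serum.

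Of the 10 genes, 8 were lower in GL261-GSCs than in GL261, Actg2 was higher, and Vcl did not pass the test. The smooth muscle genes Acta2 and Tagln fell furthest, with log2 fold changes (GL261-GSCs over GL261) of -9.24 and -9.38, while those of Tpm2 and Srf were -1.39 and -0.94. Across the libraries, 9 of the 10 genes were called by the quasi-likelihood test of edgeR (2-sided, adjusted p under 0.05 after Benjamini-Hochberg adjustment over 18439 genes), where 29.9% of all genes tested were called. Of all genes, 14.1% were called lower and 15.8% higher. Of the 10 genes, 9 had libraries that did not overlap between the groups, as did 56.7% of all genes tested (28% with GL261-GSCs lower and 28.7% with GL261-GSCs higher). Among them 4 (Acta2, Tagln, Cnn1 and Myl9) were called with a fall of at least 4 on the log2 scale, as were 2.01% of all genes. The median log2 fold change of the 10 genes was -3.07, and that of all genes tested was 0.04. Because the values are sums over cells, fewer cells with a transcript and less transcript per cell cannot be told apart in them.

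**Figure D1:**
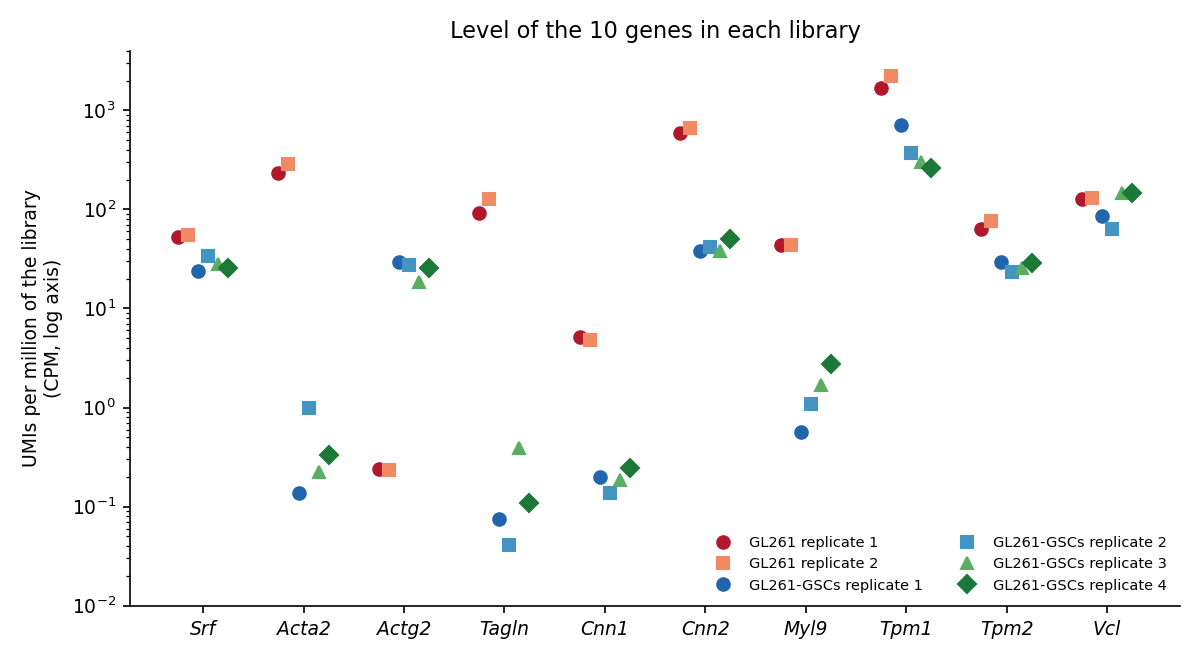
Level of the 10 genes in each of the 6 libraries, in CPM (UMIs scaled to the total of the library) on a log axis, with 1 point per library (red and orange for GL261, blue and green for GL261-GSCs). The GL261 points lie above all GL261-GSCs points for 8 genes, below them for Actg2, and among them for Vcl.

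The stretch just before the transcript start is shown for the 5 of these genes in which a CArG box was found there, since the box is the letters through which SRF is known to bind and its presence can be set beside the size of each change. RefSeq (GRCm38.p6) gave a promoter for 8 of the 10 genes, and the 250 bases before the start were read. Tagln and Actg2 had no entry. The CArG box was searched on both strands, as an exact box and as a box in which 1 of the 6 middle bases is G or C in place of A or T. Capitals mark the boxes, and each sequence runs 5′ to 3′ on the strand of the gene. Acta2 is at chr19:34255374-34255623 (minus strand), Cnn2 at chr10:79988350-79988599 (plus), Myl9 at chr2:156775214-156775463 (plus), Srf at chr17:46556163-46556412 (minus) and Vcl at chr14:20929148-20929397 (plus).
Acta2: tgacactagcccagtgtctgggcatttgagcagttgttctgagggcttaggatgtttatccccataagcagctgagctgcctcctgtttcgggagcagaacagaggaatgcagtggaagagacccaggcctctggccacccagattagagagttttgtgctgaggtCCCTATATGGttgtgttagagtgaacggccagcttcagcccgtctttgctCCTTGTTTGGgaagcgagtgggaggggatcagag
Cnn2: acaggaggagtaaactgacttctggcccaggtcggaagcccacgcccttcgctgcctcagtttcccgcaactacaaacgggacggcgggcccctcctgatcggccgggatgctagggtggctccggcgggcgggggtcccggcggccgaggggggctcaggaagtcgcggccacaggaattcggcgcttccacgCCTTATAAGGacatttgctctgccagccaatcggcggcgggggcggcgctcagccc
Myl9: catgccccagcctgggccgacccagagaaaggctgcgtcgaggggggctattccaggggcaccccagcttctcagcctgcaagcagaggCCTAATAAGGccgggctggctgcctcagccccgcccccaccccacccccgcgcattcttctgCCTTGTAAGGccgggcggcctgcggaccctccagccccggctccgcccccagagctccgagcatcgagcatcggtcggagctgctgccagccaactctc
Srf: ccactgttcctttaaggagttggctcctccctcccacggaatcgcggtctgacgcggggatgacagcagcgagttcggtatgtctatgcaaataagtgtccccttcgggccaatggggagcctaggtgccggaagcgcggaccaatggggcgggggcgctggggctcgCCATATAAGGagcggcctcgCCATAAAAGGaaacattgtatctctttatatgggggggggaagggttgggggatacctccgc
Vcl: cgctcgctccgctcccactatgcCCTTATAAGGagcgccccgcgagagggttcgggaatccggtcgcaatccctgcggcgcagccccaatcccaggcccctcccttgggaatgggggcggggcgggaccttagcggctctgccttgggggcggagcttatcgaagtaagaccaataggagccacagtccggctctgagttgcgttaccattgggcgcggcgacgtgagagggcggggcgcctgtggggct

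Exact boxes were found in 4 of the 8 promoters, those of Srf, Cnn2, Myl9 and Vcl. Of all 32851 RefSeq promoters of this length, 1.47% held an exact box and 7.24% held a box with 1 other middle base. Srf had 2 exact boxes, CCATATAAGG from 82 to 73 bases before the start and CCATAAAAGG from 62 to 53. Cnn2 and Vcl held the same 10 letters, CCTTATAAGG, from 56 to 47 bases before the start in Cnn2 and from 227 to 218 in Vcl. Myl9 had the exact box CCTAATAAGG at 161 to 152 and the box CCTTGTAAGG, with 1 G, at 99 to 90. Acta2 had 2 boxes with 1 other base each, CCCTATATGG at 84 to 75 and CCTTGTTTGG at 34 to 25. The GENCODE span of Acta2 given further on begins 217 bases before the RefSeq start, so both boxes lie inside that span. For the other 4 genes with a box the GENCODE start lies 0 to 44 bases before that of RefSeq, and their boxes lie before both. No box was found in these windows for Cnn1, Tpm1 or Tpm2, which says only that these letters are not there. The GENCODE start lies 37 bases before that of RefSeq for Cnn1, 193 for Tpm1 and 211 for Tpm2. Most of the window read for Tpm1 and Tpm2 thus lies inside the GENCODE span, and little before that start was searched. Set beside the data, the genes with an exact box ran from Myl9, with a log2 fold change of -4.85, to Vcl, with -0.23. Those with no box found ran from Cnn1, with -4.70, to Tpm2, with -1.39. Binding of SRF was not measured.

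**Figure D2:**
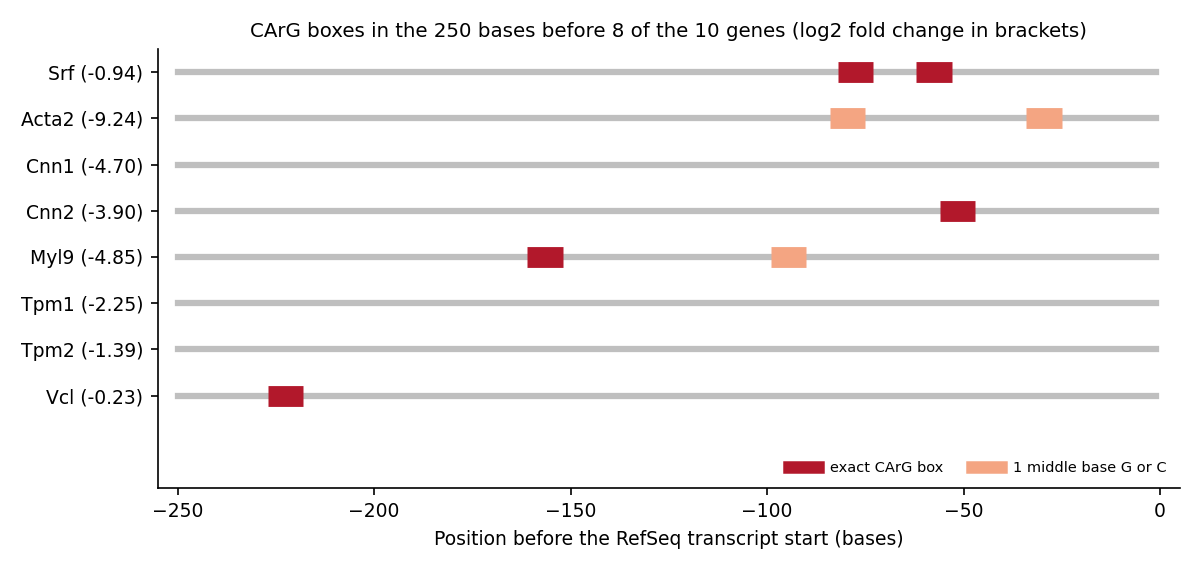
Position of CArG boxes in the 250 bases before the RefSeq transcript start of 8 genes, in bases before the start, with dark red for exact boxes and light red for boxes with 1 middle base G or C. The number after each name is its log2 fold change. Boxes stand before Srf, Acta2, Cnn2, Myl9 and Vcl, and none before Cnn1, Tpm1 and Tpm2.

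Levels are in CPM, the UMIs of a gene scaled to the total of its library (with TMM scaling), where a UMI is a tag that counts 1 captured RNA molecule. Called cells numbered 4264 to 7275 per library and held 33320530 to 79472306 UMIs, with median UMIs per cell of 6670 to 15477.5. The lowest median was that of GL261-GSCs replicate 4. Pairs of libraries shared 32 to 59 called barcodes, where the number of cells alone would give 26.1 to 57.9. Median mitochondrial shares ran from 0.953% to 1.35%, with both GL261 libraries lowest. Among markers of neural lineages, Sox10, an oligodendrocyte lineage factor, stood at 304 to 382 CPM in all 6 libraries. The neuron marker Rbfox3 and the astrocyte marker Aqp4 were at 0 in all 6. Some other markers of these lineages did differ. Olig1 and Olig2, further oligodendrocyte lineage factors, were at most at 1.30 CPM in GL261 and at 384 to 892 CPM in GL261-GSCs. Cspg4, of the same list, was not called, at 164 and 200 CPM in GL261 and 67.2 to 209 CPM in GL261-GSCs (log2 fold change -0.52). Of the other astrocyte markers, Slc1a3 had 11 UMIs in GL261 against 61.2 to 85.7 CPM in GL261-GSCs, whereas Aldh1l1 and Gfap, with 872 and 165 UMIs in GL261, had 2 and 3 in GL261-GSCs. The neuronal tubulin Tubb3 was at 85.0 and 92.3 CPM in GL261 and at 4.15 to 45.8 CPM in GL261-GSCs. It was not called, with a log2 fold change of -2.16 (adjusted p = 0.117, edgeR). That value was -4.35 without GL261-GSCs replicates 1 and 2 (adjusted p = 5.37e-07, edgeR). Without replicates 3 and 4 it was -1.32 (adjusted p = 0.0226, edgeR). GL261-GSCs replicates 1 and 2 lay apart from replicates 3 and 4 in overall counts, and results that turn on 1 of these pairs are given with and without it.

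Srf (ENSMUSG00000015605.6, chromosome 17, 46548329 to 46556175), the transcription factor that gives the set its name, stood at 52.3 and 54.9 CPM in GL261 replicates 1 and 2. In GL261-GSCs replicates 1 to 4 it stood at 23.9, 33.5, 28.4 and 25.8 CPM. Both GL261 libraries lay above all 4 GL261-GSCs libraries. The log2 fold change was -0.94 (SE 0.16, adjusted p = 0.00588, edgeR). This call did not hold without GL261 replicate 1 (adjusted p = 0.0511, edgeR) or without GL261 replicate 2 (0.0685), where 1 GL261 library remained and was assumed to vary like the others. The estimated change of Srf was 1.92-fold. A test for more than a 2-fold change, a choice made after the data were seen, therefore could not call it, and did not.

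Acta2 (ENSMUSG00000035783.8, chromosome 19, 34241090 to 34255590) encodes smooth muscle alpha-actin, the filament protein of vascular smooth muscle. It stood at 235 and 287 CPM in GL261, from 15864 and 17298 UMIs. The 4 GL261-GSCs libraries held 9, 72, 18 and 12 UMIs, or 0.136, 0.994, 0.225 and 0.330 CPM. The gene was therefore close to its limit of detection in every GL261-GSCs library, and most of what was seen there came from replicate 2. The log2 fold change was -9.24 (SE 0.67, adjusted p = 0.000246, edgeR), and it was -10.19 without GL261-GSCs replicate 2 and -9.93 without replicates 1 and 2. Over all fits with libraries left out it ran from -10.19 to -8.81. So few UMIs in 1 group set the size of the fold, and its direction did not change in any of the settings tried.

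Tagln (ENSMUSG00000032085.5, chromosome 9, 45929619 to 45936058) encodes transgelin, an actin-binding protein that marks early smooth muscle. It stood at 92.1 and 129 CPM in GL261. The GL261-GSCs libraries held 5, 3, 31 and 4 UMIs, or 0.0758, 0.0414, 0.388 and 0.110 CPM. The highest of these was replicate 3, not the replicate 2 that was highest for Acta2. The log2 fold change was -9.38 (SE 0.63, adjusted p = 0.000181, edgeR), and it was -10.58 without GL261-GSCs replicate 3, -10.84 without replicates 3 and 4 and -8.52 without replicates 1 and 2.

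Actg2 (ENSMUSG00000059430.14, chromosome 6, 83512905 to 83536265) encodes smooth muscle gamma-actin, the filament protein of gut muscle, and was the exception to the direction of the set. It had 16 and 14 UMIs in GL261, or 0.237 and 0.232 CPM. In GL261-GSCs it stood at 29.4, 27.8, 18.3 and 25.8 CPM, from 940 to 2012 UMIs per library. The GL261-GSCs libraries, within 1.60 times of each other, were all clear of the GL261 libraries. The log2 fold change was 6.74, with an SE of 0.32 (adjusted p = 6.30e-05, edgeR). The smooth muscle actins thus changed in opposite directions, and each was near its limit of detection in 1 group.

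Reads of the actin genes could in principle be shared between near-identical copies. The libraries read transcripts from their 5′ ends, and of the stretches of 50 bases within the first 300 bases of the annotated coding transcripts (251 to 1133 per gene), 0 occurred in a transcript of another gene for any of the 10 genes. Acta2 and Actg2 can therefore be told apart there by reads of that length, while the sources used here do not give the read length.

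The calponins bind actin and restrain myosin. Cnn1 (ENSMUSG00000001349.5, chromosome 9, 22099216 to 22109630), the form of smooth muscle, was low in GL261 too, at 5.17 and 4.77 CPM from 349 and 288 UMIs. GL261-GSCs libraries held 13, 10, 15 and 9 UMIs of Cnn1, or 0.197, 0.138, 0.188 and 0.247 CPM. The libraries of the groups were far apart, and the log2 fold change was -4.70 (SE 0.28, adjusted p = 0.000121, edgeR). Cnn2 (ENSMUSG00000004665.10, chromosome 10, 79988584 to 79996062), the form found in many other cells, stood at 587 and 668 CPM in GL261. Its values in GL261-GSCs were 38.5, 42.0, 38.0 and 50.2 CPM. Cnn2 fell by 3.90 in log2 terms, with an SE of 0.16 (adjusted p = 4.18e-05, edgeR). Unlike Acta2 and Tagln it stayed well above its limit of detection, with 1829 to 3045 UMIs in each GL261-GSCs library.

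Myl9 (ENSMUSG00000067818.6, chromosome 2, 156775420 to 156781658) encodes a regulatory light chain of myosin, the subunit whose phosphorylation starts contraction. It stood at 43.3 and 43.5 CPM in GL261. In GL261-GSCs it stood at 0.561, 1.09, 1.70 and 2.77 CPM. The GL261-GSCs libraries differed by up to 4.94 times but all lay below both GL261 libraries. The log2 fold change was -4.85 (SE 0.53, adjusted p = 0.00107, edgeR), and it was -5.69 without GL261-GSCs replicates 3 and 4. Over all fits with libraries left out it ran from -5.69 to -4.31.

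Tropomyosins lie along the actin filament and control the access of myosin to it. Tpm1 (ENSMUSG00000032366.15, chromosome 9, 67022590 to 67049406) stood at 1694 and 2229 CPM in GL261, and at 710, 374, 305 and 259 CPM in GL261-GSCs. GL261-GSCs replicate 1 was 2.74 times as high as replicate 4, yet no GL261-GSCs library reached a GL261 one. For Tpm1 the log2 fold change was -2.25 (SE 0.39, adjusted p = 0.00663, edgeR). The call was lost without GL261 replicate 2 (log2 fold change -2.04, adjusted p = 0.0615, edgeR).

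Tpm2 (ENSMUSG00000028464.16, chromosome 4, 43514711 to 43523765), the beta form, stood at 63.3 and 77.2 CPM in GL261 and at 29.3, 23.1, 25.6 and 29.0 CPM in GL261-GSCs. The groups lay apart, and the GL261-GSCs libraries were close together. For Tpm2 the log2 fold change was -1.39 (SE 0.15, adjusted p = 0.0009995, edgeR).

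Vcl (ENSMUSG00000021823.10, chromosome 14, 20929398 to 21033676) encodes vinculin, which links actin filaments to adhesion sites. It stood at 128 and 130 CPM in GL261. In GL261-GSCs replicates 1 and 2 it stood at 85.7 and 63.2 CPM, below both GL261 libraries, and in replicates 3 and 4 at 146 and 146 CPM, above them. Its log2 fold change was -0.23 (SE 0.35, adjusted p = 0.649, edgeR), which did not pass the test. With GL261-GSCs replicates 3 and 4 left out it was -0.79 (adjusted p = 0.0176, edgeR), and with replicates 1 and 2 left out it was 0.20 (adjusted p = 0.173, edgeR), so that direction and call both turn on which pair is kept. Across cells thinned to 2000 UMIs, Vcl went with the mitochondrial share of the cell at a Spearman correlation of 0.0868 and 0.122 in the GL261 libraries and of 0.172, 0.108, 0.272 and 0.226 in GL261-GSCs. With the number of UMIs of the cell before thinning Vcl correlated at 0.0106 and -0.0359 in the GL261 libraries, and at -0.134, -0.0785, -0.216 and -0.193 in those of GL261-GSCs. Within GL261-GSCs, cells with more mitochondrial RNA and fewer UMIs thus held somewhat more Vcl, most so in replicates 3 and 4. The part of these in the level of Vcl was not tested.

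The same comparison was read for 73 other genes of the pathway, in 6 lists drawn up by the role of the genes, with earlier results of these data known. Of these, 70 were abundant enough to test and 52 passed the test (edgeR), 46 with lower and 6 with higher levels in GL261-GSCs, which is 74.3% against the 29.9% of all genes. Their median log2 fold change was -1.13. Under the test for more than a 2-fold change 30 of them were called, 5 higher and 25 lower, and that test called 10.8% of all genes.

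**Figure D3:**
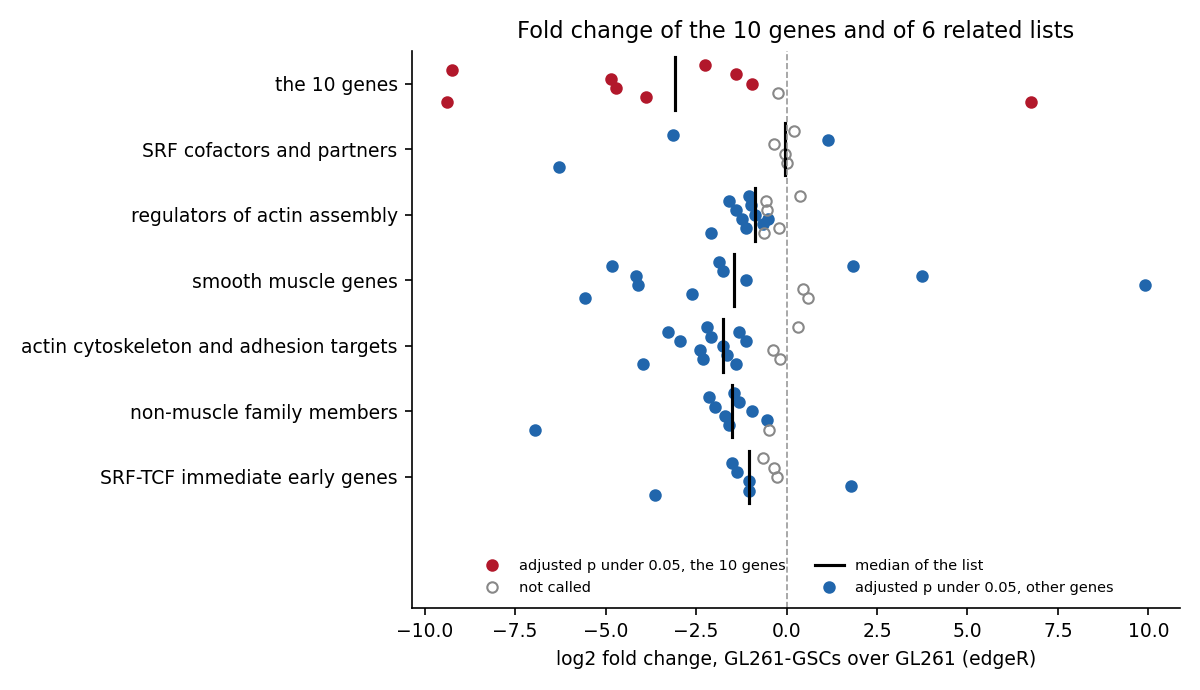
Log2 fold change (GL261-GSCs over GL261, edgeR) of the 10 genes and of the genes of 6 related lists, 1 point per gene, filled where the adjusted p was under 0.05, with a black line at the median of each list. Actc1, called higher on 1 UMI in GL261, is given by its ratio in the text and is not drawn. Most filled points lie left of 0, and the SRF cofactors centre on 0.

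Of 8 cofactors and partners of SRF, 7 were tested and 3 called, 1 higher and 2 lower, which is 42.9% against the 29.9% of all genes. Their median log2 fold change was -0.04. Mkl1, the myocardin-related factor A that carries the actin signal to SRF, stood at 20.7 and 20.9 CPM in GL261 and 39.8 to 52.8 CPM in GL261-GSCs, and its log2 fold change was 1.14, with an SE of 0.16 (adjusted p = 0.00308, edgeR). Its relative Mkl2 had a log2 fold change of -0.35 (adjusted p = 0.171, edgeR). With libraries left out that value ran from -0.45 to -0.23, and Mkl2 was called in 1 of the 18 other settings tried. Myocd, the cofactor of heart and smooth muscle, had 0 UMIs in all 6 libraries. Fhl2, a LIM protein known to bind SRF and compete with myocardin-related factors, stood at 11.4 and 11.2 CPM in GL261 against 37 UMIs over all of GL261-GSCs. Its log2 fold change was -6.28 (adjusted p = 0.000279, edgeR) and was -7.29 without GL261-GSCs replicates 1 and 2. Over all fits with libraries left out it ran from -7.29 to -5.73. Of the ternary complex factors, Elk3 had a log2 fold change of -3.15 (adjusted p = 0.00780), lost without GL261 replicate 2 (0.0512), while Elk1 and Elk4 were not called, at -0.04 and 0.21. Elk3 stood at 20.2, 13.8, 5.20 and 4.64 CPM in GL261-GSCs, and its log2 fold change was -4.28 without replicates 1 and 2 and -2.51 without replicates 3 and 4. Scai, a repressor of this pathway, was not called, at 0.02. The mRNA level of these factors does not show their activity, which was not measured.

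Upstream, 10 of 15 regulators of actin assembly were called, all 10 lower, with a median of -0.86. Without either GL261 library 4 of them were called, where 10.3% (without replicate 1) and 9.3% (without replicate 2) of all genes were called, down from 29.9%. Under the test for more than a 2-fold change 2 of the 15 were called, where that test called 10.8% of all genes. The examples with the smallest p were Rock2, a kinase that promotes myosin contraction, at -2.08, Diaph1, a formin that extends filaments, at -1.59, and the GTPase Rhoa at -0.97. Rock2 stood at 720 and 848 CPM in GL261 and 157 to 203 CPM in GL261-GSCs. Rhoa stood at 721 and 763 CPM in GL261 and 366 to 392 CPM in GL261-GSCs. Both sets of libraries were clear of each other for these genes.

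Downstream, 12 of 15 tested genes of the cytoskeleton and of adhesion sites were called, all 12 lower, with a median of -1.75. Of all genes tested 29.9% were called, 14.1% as lower. Actn1 and Actn4, the non-muscle alpha-actinins that cross-link filaments, had log2 fold changes of -3.98 and -2.93 (adjusted p = 4.18e-05 and 4.38e-05, edgeR). Actn1 stood at 579 and 671 CPM in GL261 and 34.4 to 44.5 CPM in GL261-GSCs. Of 10 non-muscle relatives of the 10 genes, 9 were called and all 9 were lower, with a median of -1.52. Tpm4 and Tagln2 had log2 fold changes of -1.60 and -1.70. Tagln3, which was low in GL261 at 2.49 and 2.75 CPM, had 5 UMIs in GL261-GSCs.

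Other genes of smooth muscle moved in both directions. Of 14 tested, 12 were called, 8 lower and 4 higher, with a median of -1.44, where 29.9% of all genes were called. Without GL261 replicate 2, 7 were called, against 9.3% of all genes. Lmod1, which nucleates actin in smooth muscle, had a log2 fold change of -4.11, Csrp1, a LIM protein, one of -2.63, and Acta1, the actin of skeletal muscle, one of -4.16. Higher in GL261-GSCs beside Actg2 were Fhl1, a LIM protein of muscle, Des, the muscle intermediate filament desmin, Ppp1r14a, an inhibitor of myosin phosphatase, and Actc1, the actin of heart muscle. Fhl1 rose from 14 UMIs (0.178 and 0.0331 CPM) in GL261 to 56.9, 115, 125 and 127 CPM in GL261-GSCs, a log2 fold change of 9.90 with an SE of 0.70 (adjusted p = 0.000229, edgeR). That value was 9.20 without GL261 replicate 2, and without GL261 replicate 1 only 2 UMIs remained in GL261, against 26671 in GL261-GSCs, a ratio of 3160 with a 95% counting interval of 875 to 26092. Des rose by 3.75 (adjusted p = 0.00165, edgeR), from 1.01 and 0.480 CPM to 7.67, 8.13, 10.4 and 14.2 CPM. Over all fits with libraries left out its rise ran from 3.32 to 4.38, the latter without GL261 replicate 1. Ppp1r14a rose by 1.84 (adjusted p = 0.00687), a call lost without GL261 replicate 2 (0.0838). Actc1, named after its values were seen, had 1 UMI over the GL261 libraries and 198 over those of GL261-GSCs, a ratio of 99.4 with a 95% counting interval of 17.6 to 3945. Myh11, the myosin of mature smooth muscle, was not called, with 11 UMIs over the GL261 libraries and 35 over those of GL261-GSCs.

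Immediate early genes, which SRF drives with the Elk factors, also moved both ways. Of 9 tested, 6 were called, 5 lower and 1 higher, with a median of -1.03, where 29.9% of all genes were called. Under the test for more than a 2-fold change 2 were called, 1 in each direction, where that test called 10.8% of all genes. Fos rose by 1.79 on the log2 scale (adjusted p = 0.00455, edgeR), from 31.5 and 17.7 CPM in GL261 to 68.8 to 104 CPM in GL261-GSCs. Egr3, Mcl1 and Junb had log2 fold changes of -3.62, -1.05 and -1.37.

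Markers of other cell types were read beside these results. The 8 mural cell markers, which would come with vessel muscle and pericytes, summed to 195 and 197 CPM in GL261 and 179 to 421 CPM in GL261-GSCs, nearly all from Mcam. Among them Rgs5 and Kcnj8 were at 0 in GL261, where Acta2 and Tagln were high, and Pdgfrb stood there at 4.93 and 5.05 CPM against 30 UMIs in all of GL261-GSCs (log2 fold change -5.40, adjusted p = 0.00109, edgeR). Des, given above, and Notch3, a receptor of vessel muscle, were higher in GL261-GSCs, Notch3 with a log2 fold change of 3.56 (adjusted p = 0.0233, edgeR) from 16 UMIs in GL261 and 327 in GL261-GSCs. It stood at 0.470, 1.06, 1.29 and 3.19 CPM in GL261-GSCs, and its log2 fold change was 4.13 without replicates 1 and 2 of that group and 2.62 without replicates 3 and 4. The Notch3 call was lost without GL261 replicate 1 (0.126) or 2 (0.164). The 6 fibroblast markers summed to 261 and 291 CPM in GL261 and 94.7 to 396 CPM in GL261-GSCs, with Col1a2 at 0 in GL261. Nearly all of the GL261 sum was Col1a1, at 247 and 282 CPM, which was lower in GL261-GSCs. Col3a1 and Pdgfra were higher there. Pdgfra stood at 7.97 and 4.84 CPM in GL261 and 56.7 to 182 CPM in GL261-GSCs (log2 fold change 4.27, adjusted p = 0.00308, edgeR). The 4 endothelial markers summed to at most 1.63 CPM in any library, and the 5 myeloid markers to 13.1 and 12.9 CPM in GL261 and 0.192 to 0.364 CPM in GL261-GSCs. Nearly all of the myeloid sum in GL261 was Csf1r, at 12.9 and 12.6 CPM, and the other 4, Ptprc, Aif1, Itgam and Cx3cr1, had 2 to 14 UMIs each over the GL261 libraries. The part of these cell types in the levels of the 10 genes was not tested.

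Within GL261, Acta2 was unevenly shared among cells. With every cell thinned to 2000 UMIs, the Acta2 count per cell had a variance of 4.85 and 3.89 times its mean in replicates 1 and 2, where independent molecules at one common level would give about 1. The fullest cells held 27 and 24 Acta2 UMIs of their 2000, while 81.8% and 75.8% of cells held 0. The 10% of cells with the most Acta2 held 80.8% and 71.7% of its UMIs. Tagln was also uneven, with a variance of 2.18 and 2.39 times the mean, and Tpm1 gave 2.02 and 2.03. This ratio grows with the mean count, so genes are set side by side by its excess over 1 divided by the mean. On that scale Acta2 stood at 9.08 and 5.46, Tagln at 7.16 and 6.04, and Myl9 at 3.07 and 2.23. Cnn1 stood higher, at 40.6 and 9.36, but from only 43 and 44 UMIs. Vcl stood at 1.15 and 0.791, Cnn2 at 0.539 and 0.412, and Tpm1, the most abundant, at 0.323 and 0.253. Srf stood at 0.221 and 0.359 and Tpm2 at 0.101 and 0.222. Myl9, Srf and Tpm2 had 343 to 730 thinned UMIs per library, so their values are less exact than those of the abundant genes. In GL261-GSCs Tpm1 stood at 0.246, 0.413, 0.455 and 0.572, which overlaps its values in GL261, and Actg2, with 211 to 334 thinned UMIs, at 2.61, 4.06, 7.52 and 8.33. Acta2, in 3 to 14 cells there, was too rare for such a value.

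**Figure D4:**
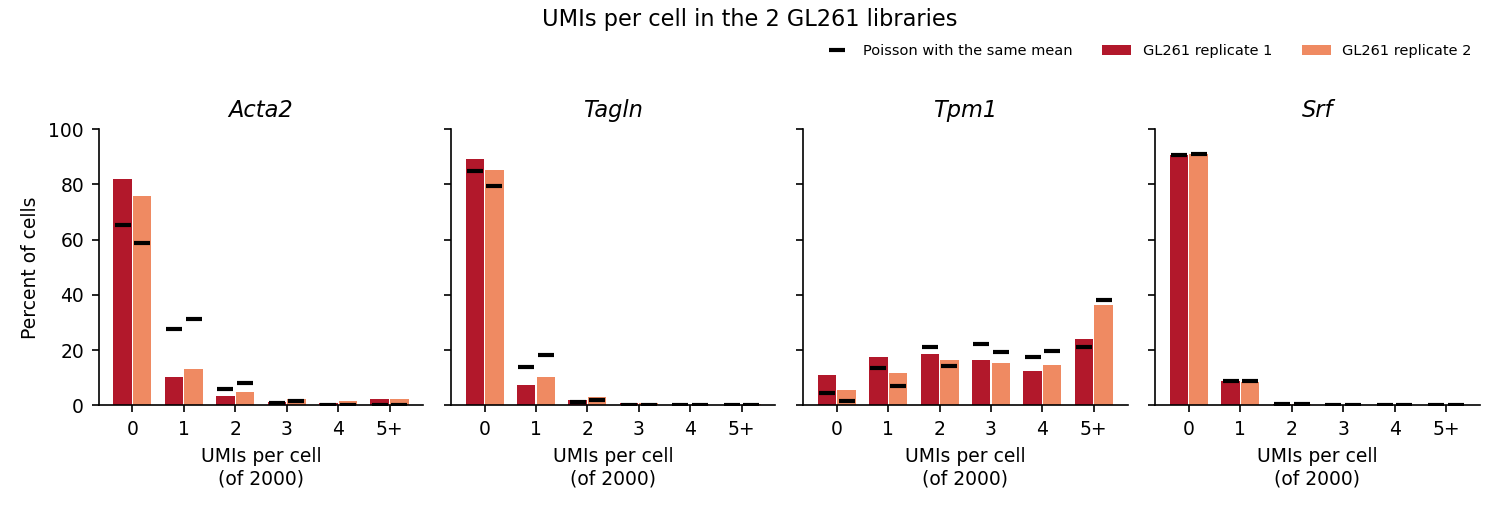
Percent of GL261 cells with 0 to 5 or more UMIs of Acta2, Tagln, Tpm1 and Srf after thinning to 2000 UMIs per cell, with 1 bar for each of the 2 libraries and a black mark where a Poisson count with the same mean would lie. Acta2 and Tagln have more cells at 0 and more at 5 or above than the marks, and Srf, at its low mean, lies close to them.

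Shares of cells with a UMI were compared at this depth, with the share that free RNA in the droplets would give if it made up all 2000 UMIs. Acta2 was seen in 18.2% of cells of GL261 replicate 1 (95% exact binomial interval 17.1 to 19.3) and 24.2% of replicate 2 (23.0 to 25.4), where free RNA would give 36.1% and 44.0%. In GL261-GSCs it was seen in 3, 14, 3 and 4 cells. Actg2 was seen in 4.92%, 5.06%, 3.34% and 3.92% of GL261-GSCs cells, where free RNA would give 8.64%, 7.54%, 5.51% and 7.01%. Shares at or below the free RNA value are not read here as the share of cells that express a gene, and this held for 7 of the 10 genes in both GL261 libraries. Srf was above it in both GL261 libraries at each depth tried. Vcl was also above it, by little in replicate 1 (19.7% with an interval of 18.6 to 20.9, against 18.7%), and without thinning it was below it there (67.9% against 73.1%). Actg2 was above it on 5 and 3 cells, with intervals that hold the free RNA value, and below it at 5000 UMIs. In GL261-GSCs only Vcl was above it in all 4 libraries, and in replicate 3 it was below it at 5000 UMIs (45.1% against 50.2%), without thinning (70.4% against 72.3%) and with the mitochondrial limit at 5% (23.5% against 24.3%). For 9 of the 10 genes the shares were apart between the groups, as they were for 49.1% of all genes tested, and the exact permutation p was 0.133 for each (2-sided, 0.148 adjusted over the 10), the smallest that 2 libraries against 4 can give. Vcl was seen in 19.7% and 20.1% of GL261 cells and 18.0%, 13.0%, 27.5% and 28.5% of GL261-GSCs cells (exact permutation p = 0.80).

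In GL261 Tagln was seen more often in cells with Acta2. Tagln was seen in 6.79% (6.02 to 7.62) of GL261 replicate 1 cells without Acta2, in 19.4% (16.0 to 23.2) of cells with 1 Acta2 UMI and in 39.2% (34.2 to 44.3) of cells with 2 or more. The same shares in replicate 2 were 10.4% (9.43 to 11.4), 19.9% (17.0 to 23.2) and 38.9% (34.8 to 43.2). In both libraries the share of cells with Tagln rose at each step of Acta2, by more than the counting intervals. Mean Tpm1 UMIs per cell were 2.82 and 5.45 in replicate 1 cells without Acta2 and with 2 or more, and mean Cnn2 UMIs were 0.899 and 1.98. At least 2 of Acta2, Tagln, Myl9 and Cnn1 were seen in 7.36% (6.64 to 8.14) and 9.60% (8.79 to 10.4) of GL261 cells, where free RNA alone would give 9.40% and 14.0%, so these are not read as shares of cells that express them. In GL261-GSCs no cell held 2 of them, and 0 of 4264 to 7275 cells allows up to 0.0412% to 0.0704% of cells with such UMIs at this depth, which sets no limit on cells that express them weakly. Intervals and limits cover counting error only.

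Spearman correlations across cells, at 2000 UMIs per cell, were computed for genes seen in at least 5% of the cells of a library. They describe cells of 1 library, which share its free RNA and handling, and carry no test. In GL261, 28 pairs of 8 genes gave a median of 0.0563 in replicate 1 (4808 cells) and 0.0420 in replicate 2 (5002 cells), with 26 and 27 pairs above 0. The highest were Cnn2 with Tpm1 (0.297 and 0.253), Acta2 with Tagln (0.284 and 0.242) and Acta2 with Tpm1 (0.253 and 0.257). Acta2 with Cnn2 gave 0.210 and 0.196, and Acta2 with Myl9 0.151 and 0.175. The 10 pairs among Acta2, Tagln, Cnn2, Myl9 and Tpm1 lay above all other pairs in both libraries, and Tpm2, Vcl and Srf lay outside this group. Pairs with Srf lay between -0.0134 and 0.0775. Correlations of Srf with genes outside the set had a 99th percentile of 0.0387 and 0.0365 and a highest value of 0.0785 and 0.0834. Srf with Myl9 (0.0430 and 0.0392) and with Vcl (0.0449 and 0.0396) lay above that percentile in both libraries. Srf with Tpm2 lay below it in both, and Srf with Acta2, Tagln, Cnn2 and Tpm1 passed it in 1 library only. Over 5868 and 5805 other genes, correlations with Acta2 had a median of -0.0015 and -0.0029 and a highest value of 0.229 and 0.228, so Tagln and Tpm1 lay above every one of those genes.

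In GL261-GSCs the genes abundant enough to compare hardly went together. Their 6, 10, 6 and 10 pairs gave medians of -0.00935, 0.0101, -0.00421 and 7.98e-05, and no pair passed 0.0468. The 3 pairs measurable in all 6 libraries (Cnn2-Tpm1, Cnn2-Vcl and Tpm1-Vcl) had medians of 0.0746 and 0.0325 in the GL261 libraries, against -0.0130, 0.0129, -0.00937 and -0.00993 in GL261-GSCs. Cnn2 and Tpm1 also had fewer UMIs per cell in GL261-GSCs, and the part of this in the lower correlations was not tested. At 5000 UMIs per cell, a depth that leaves out shallower cells, 10 pairs could be measured in all 6 libraries. Their medians were 0.0952 and 0.0876 in GL261 and -0.0113 to 0.00881 in GL261-GSCs. Actg2 passed the 5% limit in GL261-GSCs replicate 2 alone at 2000 UMIs, and in all 4 libraries of that group at 5000, where its correlation with Tpm1 was 0.0345, 0.0831, 0.0459 and 0.0212 in GL261-GSCs replicates 1 to 4, above 0 in all 4.

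**Figure D5:**
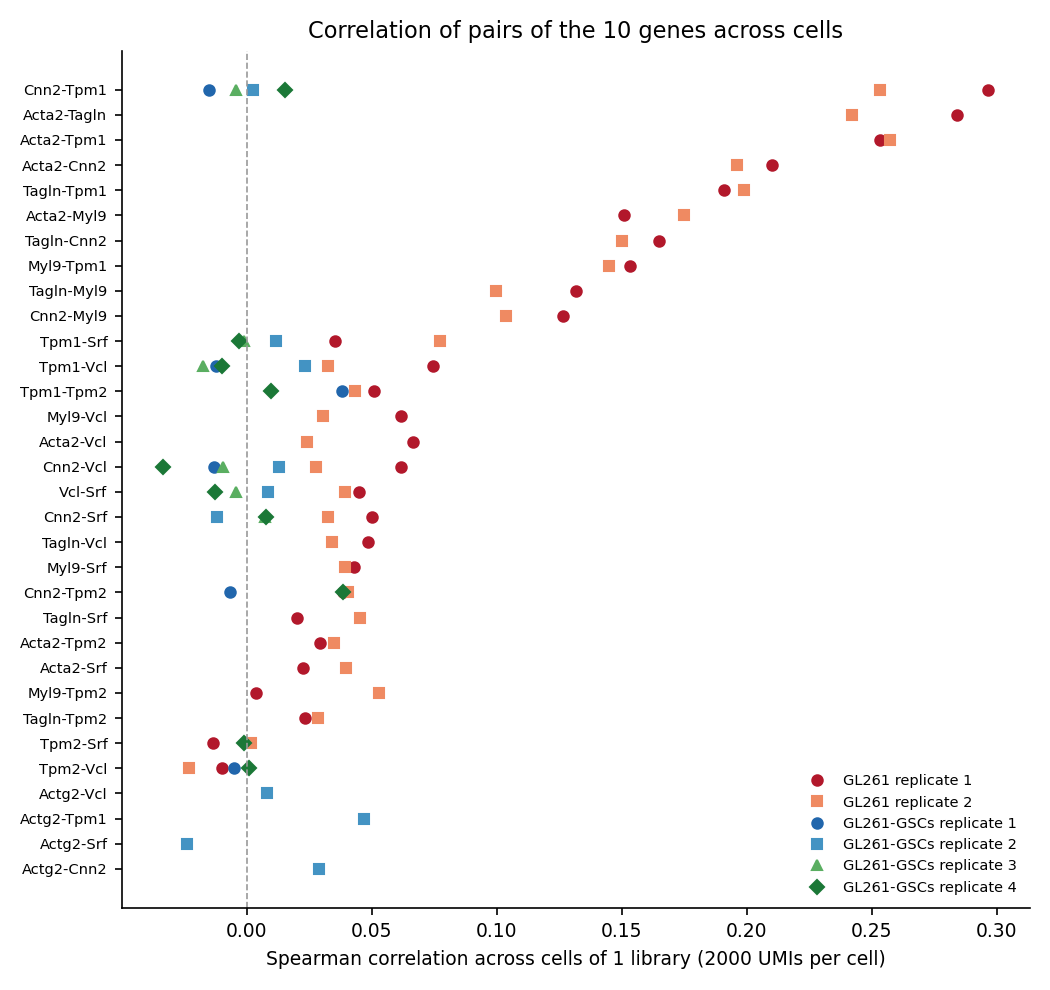
Spearman correlation across the cells of each library, at 2000 UMIs per cell, for each pair of the 10 genes seen in at least 5% of cells, with 1 point per library. In GL261 (red and orange) the 10 pairs among Acta2, Tagln, Cnn2, Myl9 and Tpm1 stand at the right, and all points of GL261-GSCs (blue and green) lie near 0.

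The genes outside the set that most resembled Acta2 across GL261 cells, by the mean of the 2 libraries' correlations among 5680 genes, were Actg1 (0.224) and Actb (0.223), the cytoplasmic actins, then Tagln2 (0.169), Actn1 (0.163) and Cryab (0.154). Those most like Tagln were Actb (0.180), Actg1 (0.176), Cryab (0.164), Tagln2 (0.160) and Myl6 (0.139). Both lists were thus led by actins, and 4 genes stood in both. Srf was most like Actg1 (0.0809), Cyr61 (0.0644), F3 (0.0553), Actb (0.0545) and Actn1 (0.0521), at weaker values. Actg1 is lower in GL261-GSCs, at 908 to 1279.5 CPM against 3996.5 and 4906 CPM in GL261. In GL261-GSCs, Cnn2 was most like Actg1 (0.0578), Ftl1 (0.0481), Actb (0.0479), Ptgds (0.0478) and Eef1a1 (0.0463), but the value for Actg1 ran from -0.0198 to 0.121 over the 4 libraries. Actg2 and Srf were seen in too few GL261-GSCs cells to be given such a list.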

How the data were processed

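Expression was measured by 5′ single-cell RNA-seq in droplets, in 2 libraries of GL261 and 4 of GL261-GSCs, grouped by sample title. The authors deposited unfiltered matrices of raw UMI counts, made with Cell Ranger 4 per the file headers and on mm10 per the submitters' processing notes. The labels do not settle if cells or nuclei were loaded.

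Barcodes were called cells when their UMIs reached 10% of the 99th percentile among the 3000 largest barcodes, with at least 500 genes and under 10% mitochondrial UMIs, and no doublet caller was run. UMIs were summed per library and tested with edgeR 4.0.16 (TMM, filterByExpr, quasi-likelihood, 2-sided, adjusted p under 0.05) in R 4.3.3. The SE is the absolute log2 fold change over the square root of F. For values per cell, cells were thinned to 2000 UMIs, drawn without replacement, and no called cell was too shallow for it. At 5000 UMIs, 226 to 1696 called cells per library were too shallow and were left out. Free RNA came from barcodes with 100 to under 1000 UMIs. Coordinates are those of GENCODE M21 (GRCm38). DESeq2 1.42.0, limma-voom, other scalings and filters and left-out libraries were tried. Named genes were all 10 members, in each list up to 3 called higher and 3 called lower with the smallest p, all SRF cofactors, and the 5 genes most like each of a few members. A result of 1 gene that this rule names is not reported here. The members and lists were chosen with earlier results of these data known. The tests were tested on simulated data.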

Additional observations from a re-analysis of the deposited data

How the results depend on the processing

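Of the 10 genes, 9 were called under DESeq2 size factors, library size scaling, no filter on low counts, the DESeq2 Wald test, limma-voom, the other cell calls and all barcodes, and 7 to 9 with 1 library left out. Acta2, Tagln, Actg2, Cnn1, Cnn2, Myl9 and Tpm2 were called with the same direction in all settings tried. For the scalings, filters, tests and cell calls named first, 17% (no filter on low counts) to 36.7% (DESeq2 Wald test) of all genes were called. The shares of all genes with 1 library left out are given next. Library size scaling moved the median of all genes to 0.18. The pathway lists had 30 genes called under the 2-fold test, chosen after the data were seen, and 35 to 52 with 1 library left out, where 9.3% (without GL261 replicate 2) to 33.8% (without GL261-GSCs replicate 1) of all genes were called. With the replicate number as a block, 6512 genes were called in all, and Vcl was among them, with a log2 fold change of -0.81 (adjusted p = 0.0133, edgeR). Replicate numbers 3 and 4 exist only in GL261-GSCs, so the block fit compares the groups within replicates 1 and 2 alone. Vcl was -0.79 with GL261-GSCs replicates 3 and 4 left out. Same-numbered libraries had deviations from their group means correlated at -0.00712 and 0.0705. With 2 GL261 libraries these deviations mirror each other, so this cannot decide whether the numbers pair libraries. Vcl was 0.20 without GL261-GSCs replicates 1 and 2. Elk1, near 0, was 0.11 under library size scaling and with all barcodes (0.1085 and 0.1095), 0.023 with the block, 0.029 without GL261-GSCs replicates 3 and 4, and -0.11 to 0.014 with 1 library left out. Scai was -0.00019 under limma-voom, -0.043 with the block, -0.030 without GL261-GSCs replicates 3 and 4, -0.018 with a mitochondrial limit of 5%, and -0.022 to 0.094 with 1 library left out. The difference in the share of cells with Vcl was -3.08 percentage points at 5000 UMIs, -7.02 without thinning, and -0.38 to 4.79 with 1 library left out, turning negative without GL261-GSCs replicate 3 (-0.0417) or 4 (-0.379). The value at 5000 UMIs comes from a smaller set of cells, since shallower ones are left out. These were 226, 504, 1162 and 1696 cells in GL261-GSCs replicates 1 to 4, and 448 and 487 in GL261. The median correlation over pairs, averaged over the libraries, was 0.0963 in GL261 at 5000 UMIs and 0.177 without thinning, where depth differs between cells, and 0.0217 in GL261-GSCs without thinning. The cause of the changes, those of the block fit apart, was not tested.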

Other observations

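The median log2 fold change was -0.13 over 12 genes of the G2/M phases of the cell cycle and -0.14 over 12 genes of the G1/S phases, of which 1 was called (edgeR). The collagens in the fibroblast list moved apart. Col1a1, the main chain of type I collagen, was lower in GL261-GSCs, with a log2 fold change of -3.93 (adjusted p = 0.000359, edgeR), from 247 and 282 CPM in GL261 to 10.8 to 26.3 CPM in GL261-GSCs. Col3a1, of type III collagen, had one of 4.71 (adjusted p = 0.0113, edgeR), from at most 6.01 CPM in GL261 to 22.3, 180, 201 and 174 CPM, a call lost without GL261 replicate 1 (0.0907) or 2 (0.105). GL261-GSCs replicate 1 was the lowest of its group for Col3a1, as it was for Fhl1.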
